A study of Homo sapiens with 8 samples.

Results

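The lorlatinib-resistant line erLor0 was compared directly with the alectinib-resistant line erAlec0, in RNA and in H3K27ac, an acetylation mark on histone H3 found at active promoters and enhancers. Members were all genes whose highest value over the 4 libraries of a table was at least 4.64 on the log2 scale, which kept 12705 of 43869 genes, and all H3K27ac peaks whose highest value was at least 3.91, which kept 86315 of 126470 peaks. At these minimums the lowest gene kept had a maximum of 4.6402 and the highest gene left out one of 4.6393, and for peaks the values were 3.91002 and 3.90995. Every difference below is erLor0 minus erAlec0 in rlog, the regularized log2 value that the authors computed, so a positive value means more RNA or more H3K27ac in erLor0. A difference of at least 1 (2-fold) in size is called past the limit. The study used this limit for genes of a resistant line against naive cells. Here it was applied between resistant lines and to peaks as well.

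ALK is a receptor tyrosine kinase that lung epithelium normally does not use. In a subset of lung adenocarcinomas a rearrangement joins its kinase part to EML4, and the fusion protein drives growth through the RAS and ERK pathway. Alectinib and lorlatinib are later-generation inhibitors of the ALK kinase, and tumours that respond to them commonly become resistant either through ALK itself or through other routes that feed the same pathway.

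Both lines descend from NCI-H3122, a human lung adenocarcinoma cell line with the EML4-ALK fusion, and the treatment-naive H3122 line and the crizotinib-resistant line erCriz0 were measured in the same table. Each resistant line had evolved resistance under gradually raised inhibitor. erLor0 was maintained in 2 µM lorlatinib, erAlec0 in 2 µM alectinib and erCriz0 in 0.5 µM crizotinib, and RNA was taken after 48 h without inhibitor. The labels give 0.1% DMSO, the solvent of the inhibitors, for all samples. There was 1 RNA library and 1 H3K27ac library per line, so a difference may belong to the resistance, to the particular line or to its one library, and these cannot be told apart. No test was possible, no error can be given for any value, and the sequencing depth of the libraries is unknown.

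The libraries were close in overall level. The median RNA of the member genes was 8.14 in naive cells, 8.09 in erCriz0, 8.11 in erAlec0 and 8.12 in erLor0. The median peak level, in the same order, was 4.98, 4.98, 5.08 and 4.94. All 7 lung epithelial markers examined (EPCAM, CDH1, KRT7, KRT8, KRT18, KRT19 and NKX2-1) were at 8.67 or more in every library. Of 6 immune markers none was a member, and the highest reached 4.53 (CD14). PTPRC, which defines leukocytes, was listed at 0 in every library. Of 5 fibroblast markers measured only COL1A1 was a member, and of 6 endothelial markers only KDR and CDH5 were.

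**Figure D1:**
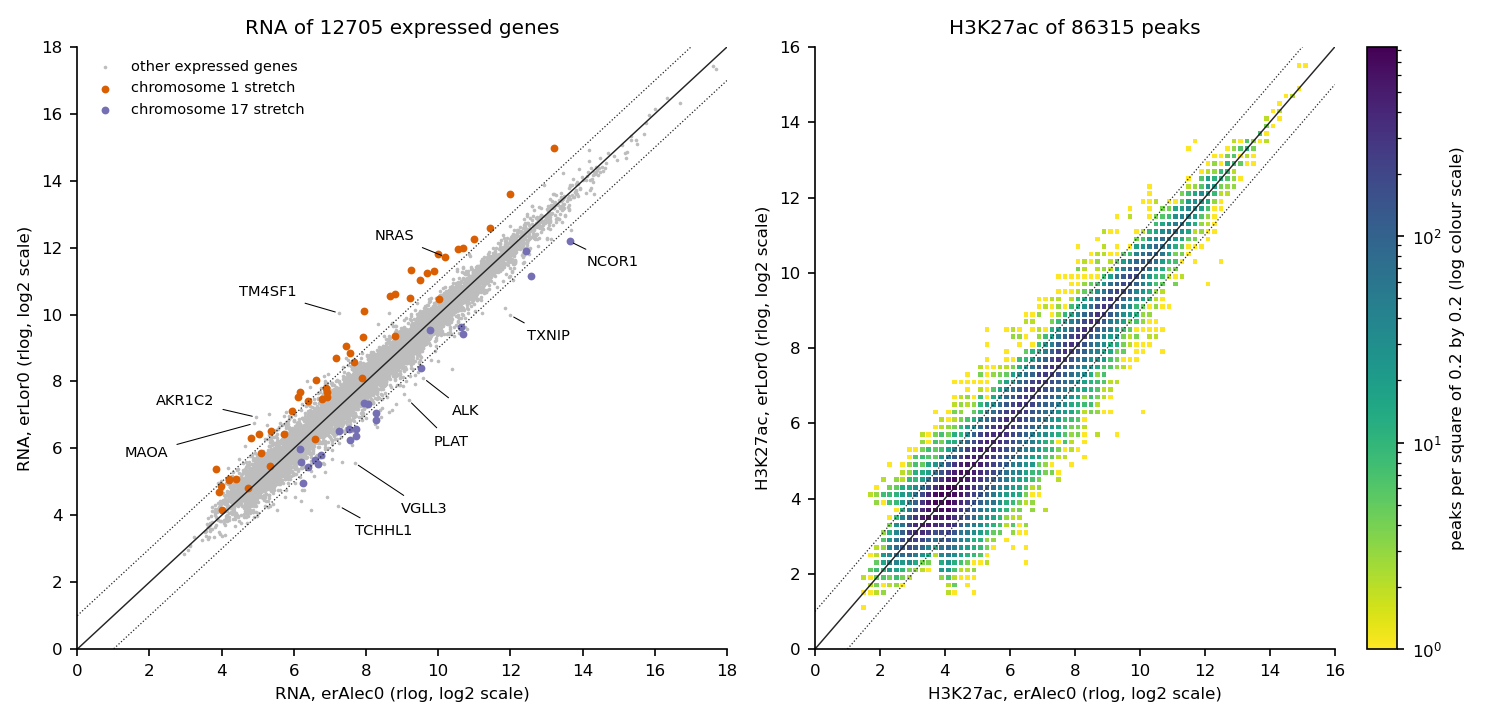
RNA (left, 12705 genes as points) and H3K27ac (right, 86315 peaks, coloured by how many fall in each square) in erAlec0 on the horizontal and erLor0 on the vertical axis, both in rlog on the log2 scale, with 1 library per line. The solid line marks equal values and the dotted lines a difference of 1. Genes of a chromosome 1 stretch (orange) lie mostly above the upper dotted line, those of a chromosome 17 stretch (purple) lie below the solid line, and the peaks spread farther below the solid line than above it.

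RNA differed past the limit at 156 genes, 1.23% of the members. Of these, 73 were higher in erLor0 (0.575%) and 83 were higher in erAlec0 (0.653%), and the median difference over all members was −0.0030. The SD of the gene differences was 0.32. Among the 73 genes 71 were protein coding, as were 70 of the 83. The 2 directions thus held nearly the same number of genes, and few genes went far past the limit, since only 3 and 6 genes differed by at least 2. Past 1.5-fold were 409 genes higher in erLor0 (3.22%) and 434 higher in erAlec0 (3.42%), 6.64% of the members together.

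H3K27ac differed more widely and unevenly. Of the member peaks, 1433 were higher in erLor0 (1.66%) and 5748 were higher in erAlec0 (6.66%), 8.32% together, although the median peak difference was 0.0074 and 50.6% of the peaks were higher in erLor0 by any amount. Past 1.5-fold were 8.77% and 15.9%, 24.7% together. When each library was centred on its own median, which moved the median peak difference to 0.14, the counts were 2377 and 4301, so the excess of peaks higher in erAlec0 became smaller. Peaks higher in erAlec0 had few G and C bases, with a median GC content of 43.6% against 48.2% over all member peaks. Their mean level over the 4 libraries was also low, at a median of 4.23 against 5.02 for peaks past neither limit. That mean takes in the libraries where they were low, so it is in part set by how they were picked. In erAlec0 itself their median was 5.40, against 5.08 over all member peaks. The 20.4% of peaks with the lowest GC content (median 37.6% in the 500 bases around the centre) held 2007 peaks higher in erAlec0 and 253 higher in erLor0, against 143 and 303 in the 19.98% with the highest GC content (median 63.8%). Among the 17264 weakest peaks by mean level 12.8% were higher in erAlec0, and among the 17263 strongest 1.62%. Base composition and level therefore moved with the direction of the peak differences, and their part in it was not tested beyond removing the trend, which left 4911 peaks higher in erAlec0 and 1545 higher in erLor0 for GC content.

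The position of the other libraries gave the direction a context. For the 5748 peaks higher in erAlec0 the median level was 3.82 in naive cells, 3.68 in erCriz0, 5.40 in erAlec0 and 3.97 in erLor0. The naive value lay nearer to erLor0 at 5226 of these peaks. For RNA the naive value lay nearer to erLor0 at 71 of the 83 genes higher in erAlec0. Of the genes higher in erLor0, the naive value was nearer to erLor0 at 30 and nearer to erAlec0 at 43, but outside the stretches of chromosomes 1 and 17 described below it was nearer to erLor0 at 29 of 44. The peak medians outside erAlec0 lay near the minimum of 3.91, and a peak that passed it through erAlec0 alone had to have a naive value below that, so the count for peaks is a description only. The counts for genes are descriptions too. The genes were picked by their erLor0 and erAlec0 values, and no share over all members is given beside them. A library that deviates on its own would give the same picture, and the 2 cannot be told apart.

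A broad stretch of chromosome 1 stood out among the members higher in erLor0. The genome was divided into bins of 2 Mb, of which 922 held at least 20 member peaks and 4 member genes, and in 5 of these the median RNA difference and the median peak difference were both at least 0.5 the same way. Of these, 4 neighbouring bins lay on the short arm of chromosome 1, next to the centromere, from 114 to 122 Mb of hg38, and the other lay on chromosome 17 from 14 to 16 Mb. The 4 bins of chromosome 1 had median peak differences of 1.53, 1.59, 1.77 and 1.72 and median RNA differences of 1.47, 1.52, 0.80 and 0.89. Widened by single megabases as long as either median stayed past 0.5, the stretches ran from 113 to 122 Mb and from 13 to 17 Mb.

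In the chromosome 1 stretch 29 of 48 genes were past the limit and all 29 were higher in erLor0, which is 39.7% of the genes higher in erLor0 from 0.378% of the members. The median RNA difference there was 1.27 and only EMBP1, a pseudogene, was lower in erLor0, by 0.29. Of 489 peaks, 411 were higher in erLor0 and none was higher in erAlec0, with a median difference of 1.60 on the log2 scale. The median peak level was 3.82 in naive cells, 3.78 in erCriz0, 3.91 in erAlec0 and 5.32 in erLor0, so erLor0 was the library that stood apart. DNA copy number was not analysed here, so from these values a difference in copy number and one in activity cannot be told apart. The study reports, from a DNA array, an amplification on the short arm of this chromosome that contains NRAS in an erLor line. It also reports elevated NRAS transcript with the amplification and new acetylation peaks near the gene. Its main text does not name the amplified line, so whether it is the line compared here was not tested.

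**Figure D2:**
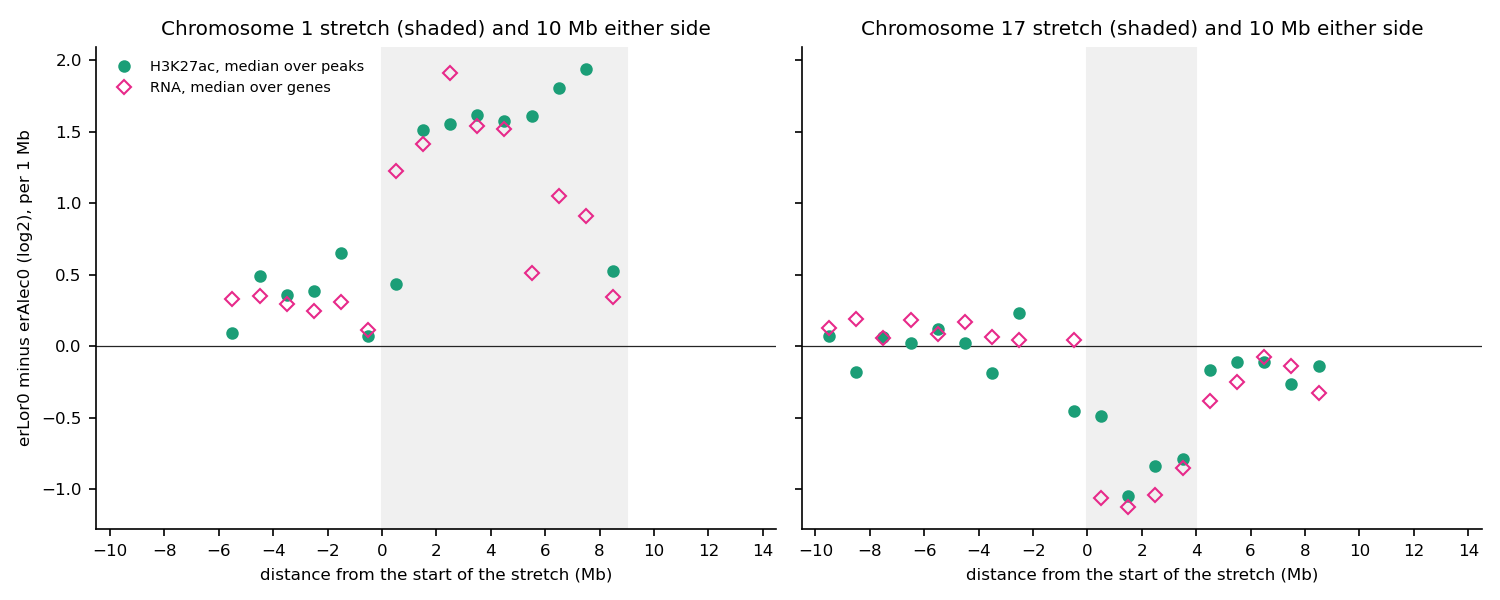
Median difference of erLor0 minus erAlec0 on the log2 scale in bins of 1 Mb across the chromosome 1 stretch (left) and the chromosome 17 stretch (right) with 10 Mb on either side, against the distance from the start of the stretch in Mb. Filled circles are H3K27ac medians over peaks, open diamonds are RNA medians over genes, shading marks the stretch, and bins with fewer than 5 peaks are not drawn. Within the chromosome 1 stretch the H3K27ac medians of 7 neighbouring bins lie between 1.51 and 1.94, whereas in the chromosome 17 stretch both measures lie below 0.

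NRAS lies in this stretch. It encodes a small GTPase that relays receptor signals to RAF and ERK. NRAS (ENSG00000213281.5, chr1:114704469-114716771) had an RNA value of 10.24 in naive cells, 10.40 in erCriz0, 10.20 in erAlec0 and 11.72 in erLor0. The first 3 values were alike, and erLor0 exceeded erAlec0 by 1.52, or 2.88-fold. The peak over its start (chr1:114714924-114717570) read 7.56, 7.62, 7.53 and 9.49 in the same order, a difference of 1.96. The other 2 peaks paired with it differed by 1.94 and 2.11. A neighbour of NRAS, SIKE1, a suppressor of innate immune signalling, differed by 1.41, and NRAS did not stand out from its surroundings.

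Of the other genes of the stretch, TTF2, a transcription termination factor, had the largest difference, with 8.93 in naive cells, 8.48 in erCriz0, 7.95 in erAlec0 and 10.12 in erLor0, a difference of 2.17. It was followed by IGSF3, an immunoglobulin superfamily member, with 2.10, and VANGL1, a planar cell polarity protein, with 1.91. The adhesion ligand CD58 differed by 1.60 and the receptor NOTCH2 by 1.16. PHGDH, which starts serine synthesis, differed by only 0.45 although its promoter peak differed by 2.08, and TBX15, a developmental transcription factor, by 0.13. NOTCH2, FAM72B and the NBPF genes have near-identical copies elsewhere in the genome, so their values are uncertain. WARS2 and WARS2-AS1 overlap on opposite strands, and their equal differences of 1.41 may share reads.

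The 6 largest peak differences in favour of erLor0 all lay in the stretch. The largest was at chr1:119339031-119343309 in an intron of the long noncoding RNA gene LINC01780, with 4.97 in naive cells, 4.57 in erCriz0, 5.31 in erAlec0 and 8.41 in erLor0. The other 5 differed by 2.62 to 2.71. One of them, at chr1:118184194-118186242, covers the start of SPAG17, a cilium gene, and had values of 6.05, 6.52, 5.36 and 8.01. The first of these sites read at most 5.31 in 3 libraries.

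The chromosome 17 stretch went the other way. All 23 of its genes were lower in erLor0, 11 of them past the limit, with a median of −0.998, and 68 of its 174 peaks were higher in erAlec0 while none was higher in erLor0. The median peak level was 4.29 in naive cells, 4.63 in erCriz0, 5.31 in erAlec0 and 4.40 in erLor0, so here erAlec0 stood apart. DNA copy number was not analysed for this stretch either, so copy number and activity cannot be told apart for its genes. The study's DNA array found recurrent amplifications on several chromosomes, 17 among them. Its main text names neither the line nor the position of that one. NCOR1, a corepressor that recruits a histone deacetylase, had 12.20 in naive cells, 12.27 in erCriz0, 13.64 in erAlec0 and 12.19 in erLor0. PIGL, needed for membrane anchors of proteins, differed by −1.43, the small nucleolar RNA host gene SNHG29 by −1.42 and TTC19, a respiratory chain assembly factor, by −1.26. PIGL and NCOR1 overlap and start from a shared peak, which differed by −0.60.

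Outside both stretches 44 genes were higher in erLor0 and 72 were higher in erAlec0. The largest difference of all in favour of erLor0 was that of TM4SF1 (ENSG00000169908.12, chr3:149369022-149377692), a tetraspanin-like surface protein of many carcinomas. Its RNA was 7.10 in naive cells, 7.22 in erCriz0, 7.26 in erAlec0 and 10.04 in erLor0, a difference of 2.78. The other libraries were thus alike and erLor0 was 6.89-fold above erAlec0. The broad peak over its start (chr3:149374797-149404250) was strong everywhere, at 12.23, 12.01, 12.0045 and 12.32, and differed by only 0.32.

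The promoters of TM4SF1 and NRAS are shown because these genes had a large RNA difference beside, respectively, a small and a large promoter difference. Those of TCHHL1 and AASS, described below, are shown because both RNA and promoter were higher in erAlec0. The sequences are the RefSeq promoters of GRCh38.p14, from 250 bases before to 50 bases after the start, on the strand of the gene, at chr3:149377600-149377899, chr1:114716722-114717021, chr1:152089015-152089314 and chr7:122144200-122144499. Capitals mark matches, on either strand, to any of 14 short motifs searched.
TM4SF1: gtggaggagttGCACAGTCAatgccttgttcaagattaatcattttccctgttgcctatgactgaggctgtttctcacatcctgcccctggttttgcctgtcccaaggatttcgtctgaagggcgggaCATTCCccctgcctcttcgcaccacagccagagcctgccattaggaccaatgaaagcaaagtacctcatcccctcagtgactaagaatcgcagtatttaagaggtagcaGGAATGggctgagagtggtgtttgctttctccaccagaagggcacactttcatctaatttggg
NRAS: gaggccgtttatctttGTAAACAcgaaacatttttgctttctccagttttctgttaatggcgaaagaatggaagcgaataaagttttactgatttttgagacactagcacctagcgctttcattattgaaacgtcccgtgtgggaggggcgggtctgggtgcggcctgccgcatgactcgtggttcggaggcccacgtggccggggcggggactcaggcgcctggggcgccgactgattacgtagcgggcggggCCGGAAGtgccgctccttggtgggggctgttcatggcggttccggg
TCHHL1: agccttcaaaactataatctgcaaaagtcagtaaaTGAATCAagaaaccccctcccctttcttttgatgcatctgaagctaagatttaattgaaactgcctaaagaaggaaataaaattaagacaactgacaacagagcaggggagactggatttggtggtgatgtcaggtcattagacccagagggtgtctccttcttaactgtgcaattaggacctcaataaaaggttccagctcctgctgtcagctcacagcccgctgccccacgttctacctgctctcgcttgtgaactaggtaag
AASS: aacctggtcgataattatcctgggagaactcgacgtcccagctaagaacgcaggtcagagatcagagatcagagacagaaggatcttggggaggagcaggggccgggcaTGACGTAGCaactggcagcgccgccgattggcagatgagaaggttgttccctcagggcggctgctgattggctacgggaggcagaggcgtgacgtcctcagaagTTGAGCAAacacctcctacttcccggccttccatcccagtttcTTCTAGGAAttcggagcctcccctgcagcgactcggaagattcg
The capitals of TM4SF1 are 2 matches to the TEAD motif GGAATG, found in 14.03% of all 35116 RefSeq promoters of this length, and 1 to the antioxidant response motif TGACNNNGC (13.3%). NRAS holds the FOX motif TGTTTAC (3.42%) and the ETS motif CCGGAAG (10.3%). TCHHL1 holds the AP-1 motif TGANTCA (7.71%), and AASS the antioxidant response motif, the CEBP motif TTGCNNAA (10.5%) and the STAT motif TTCNNNGAA (7.66%). These are descriptions of letters and say nothing of whether a factor binds.

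The other leading genes higher in erLor0 differed in where the other libraries lay. MAOA, which degrades monoamines, was highest in erLor0, with 5.41 in naive cells, 5.54 in erCriz0, 4.90 in erAlec0 and 6.75 in erLor0. AKR1C2, an aldo-keto reductase, instead was high in naive cells and low in erAlec0, with 7.92, 5.09, 4.96 and 6.93 in the same order. GABBR2, a subunit of the GABA type B receptor, showed the same order as AKR1C2, with 7.31, 5.43, 5.30 and 7.03. TCEA3, an elongation factor, read 7.36, 8.32, 6.37 and 8.01, with erCriz0 the highest, and its promoter peak (chr1:23419640-23425143) differed by 1.92. Thus for AKR1C2 and GABBR2 the larger step was a low value in erAlec0, shared with erCriz0.

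**Figure D3:**
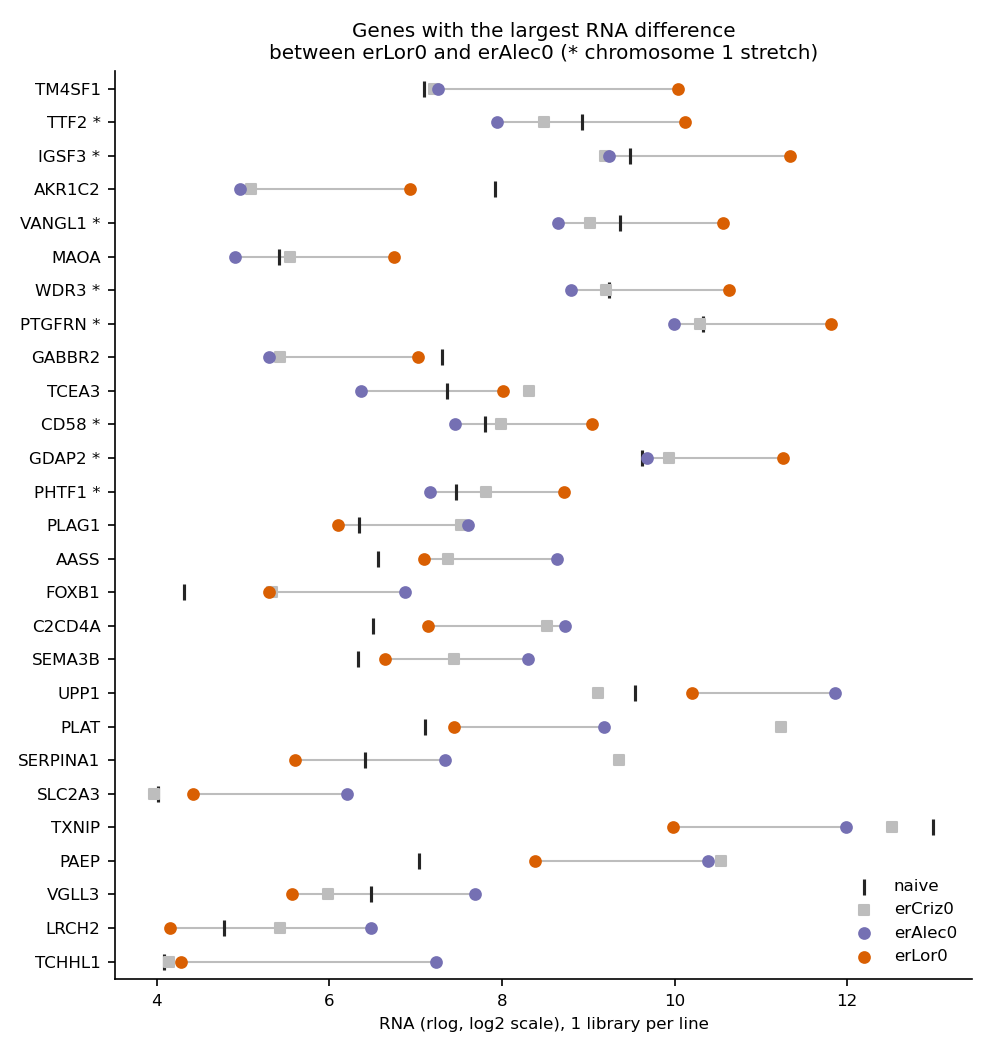
RNA in rlog (log2 scale) of named genes among those with the largest difference in favour of erLor0 (upper part) and of erAlec0 (lower part), 1 library per line. Orange circles are erLor0, purple circles erAlec0, grey squares erCriz0 and black ticks naive cells, and a star marks genes of the chromosome 1 stretch. TM4SF1 is at 10.04 in erLor0 and at 7.10 to 7.26 in the other lines, and TCHHL1 is at 7.24 in erAlec0 and at 4.08 to 4.28 in the others.

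The largest difference in favour of erAlec0 was that of TCHHL1 (ENSG00000182898.4, chr1:152084141-152089064), a relative of the hair follicle protein trichohyalin in the epidermal differentiation cluster. Its RNA was 4.08 in naive cells, 4.14 in erCriz0, 7.24 in erAlec0 and 4.28 in erLor0, a difference of −2.95. Its promoter peak (chr1:152086943-152091870) followed, with 8.04, 7.75, 10.71 and 7.96. RNA and H3K27ac of TCHHL1 were thus high in erAlec0 alone.

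VGLL3, a cofactor of TEAD transcription factors, had 6.48 in naive cells, 5.98 in erCriz0, 7.69 in erAlec0 and 5.57 in erLor0. LRCH2, a leucine-rich repeat protein gene on the X chromosome, had 4.77, 5.43, 6.48 and 4.16. Both were above the naive value in erAlec0 and below it in erLor0. AASS, an enzyme of lysine breakdown, had 6.56, 7.37, 8.64 and 7.10, and its promoter peak (chr7:122143055-122144312) differed by −1.68. SERPINA1, the antiprotease alpha-1 antitrypsin, had 6.42, 9.36, 7.34 and 5.61, with a promoter difference of −1.07. PLAT, tissue plasminogen activator, had 7.11, 11.23, 9.18 and 7.45, and PAEP, a secreted lipocalin, 7.03, 10.53, 10.39 and 8.38. In these last 3 genes erCriz0 was the highest library and erAlec0 lay between it and erLor0.

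TXNIP, a glucose-responsive inhibitor of thioredoxin and of glucose uptake, showed yet another order. Its RNA was 12.995 in naive cells, 12.52 in erCriz0, 11.99 in erAlec0 and 9.99 in erLor0, so that erLor0 was lowest by 2.00. ARRDC4, its relative among the alpha-arrestins, was chosen after its values were seen and had 8.30, 7.50, 6.80 and 5.57, the same order. The promoter peak of TXNIP nevertheless was higher in erLor0 by 0.63. SLC2A3, the glucose transporter GLUT3, was higher in erAlec0, with 4.01, 3.97, 6.20 and 4.42, and passed the minimum through erAlec0 alone. UPP1, which cleaves uridine, had 9.54, 9.11, 11.86 and 10.20.

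ALK (ENSG00000171094.18, chr2:29192774-29921586) itself was higher in erAlec0. Its RNA was 8.18 in naive cells, 10.65 in erCriz0, 9.58 in erAlec0 and 8.10 in erLor0, a difference of −1.48 between erLor0 and erAlec0. EML4, whose promoter drives the fusion transcript, read 12.30, 13.15, 12.62 and 12.36, a difference of −0.26. The reads of ALK cannot be split between the fusion and the unrearranged gene in this table. With DNA probes on the gradually derived lines, the study reports amplified EML4-ALK in most erCriz cells, in some erAlec cells and not in erLor cells. It also reports a larger share of erLor than of naive cells without a detectable fusion allele. Copy number was not analysed here, so copy number and activity cannot be told apart for ALK. Of 35 peaks paired with ALK, 6 were higher in erLor0 by any amount and the median difference was −0.45. The last peaks of a cluster inside the gene differed most, at chr2:29616556-29617193 by −1.46 and at chr2:29617313-29617801 by −1.55. EML4 had 40 paired peaks, with a median of 0.15, and its promoter peak differed by 0.07.

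The receptor tyrosine kinases, which can take over from ALK, held no member past the limit, at a share of 1.23% over all members. Of 26 members 14 were higher in erLor0, with a median of 0.02. EGFR read 10.84 in naive cells, 11.93 in erCriz0, 11.69 in erAlec0 and 11.51 in erLor0, a difference of −0.18. ERBB2 differed by −0.15, FGFR1 by −0.46 and AXL by 0.04. EPHA2, an ephrin receptor and a target of ERK signalling, read 10.55, 10.91, 12.05 and 11.29, and its difference of −0.75 was the most negative. At the other end were KDR, a VEGF receptor, with 0.99 and EPHB6 with 0.96. Their ligands leaned toward erAlec0: 3 of 19 members were higher in erLor0, against 49.5% of all members, and the median was −0.23. Only AREG, the EGFR ligand amphiregulin, was past the limit, with 7.70, 8.31, 9.11 and 8.02, while EREG, HBEGF and NRG1 differed by −0.55, −0.50 and −0.49.

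Downstream of the receptors the ERK feedback and output genes had a median of −0.21 over 20 members, 6 of them higher in erLor0. DUSP6, an ERK phosphatase, differed by −0.45, DUSP5 by −0.53 and the ETS factor ETV1 by −0.74, while ETV4 and ETV5 differed by 0.14 and 0.16. Of 9 AP-1 factors only FOSL1 was higher in erLor0, by 0.02, and FOS, JUNB and JUND differed by −0.70, −0.62 and −0.56. None of these genes was past the limit. NRAS was thus higher in erLor0 whereas the ERK output genes were, at the median, slightly higher in erAlec0.

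Of 28 chemokine and cytokine genes only 10 were high enough to be members. Of these 7 were higher in erAlec0, with a median of −0.50, but over all 28 the median was −0.030, and IL11 passed the minimum through erAlec0 alone. IL11, a cytokine of the IL-6 family, had 3.66 in naive cells, 3.80 in erCriz0, 6.05 in erAlec0 and 4.53 in erLor0. CXCL8, the neutrophil attractant interleukin 8, had 8.48, 8.04, 11.21 and 10.03, and CXCL1 and CXCL2 differed by −0.84 and −0.95. PTGS2, the inducible cyclooxygenase, chosen after its values were seen, differed by −1.42.

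Of 28 interferon-stimulated genes 21 were higher in erAlec0, with a median of −0.38 and 9 past 1.5-fold, against 3.42% of all members. IFI16, a sensor of DNA, had 4.44 in naive cells, 9.46 in erCriz0, 6.23 in erAlec0 and 4.75 in erLor0. The antiviral IFITM1, IFITM2 and IFITM3 differed by −0.58, −0.83 and −0.77, whereas the antiviral MX1 differed by 0.08, so the list did not move as one. Of 17 immune recognition genes 16 were higher in erAlec0, with a median of −0.40, which was −0.22 when genes under the minimum were added. HLA-B, an antigen-presenting molecule, differed by −0.86 and CD274, the checkpoint ligand PD-L1, by −0.81. Reads of the HLA genes may be shared among near-identical alleles and copies.

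Redox and growth genes leaned the other way. Of 21 NRF2 targets and AKR1 reductases 16 were higher in erLor0, with a median of 0.49, and 8 were past 1.5-fold, against 3.22% of all members. AKR1C1 and AKR1C3 differed by 0.96 and 0.93 beside 1.97 for AKR1C2, 3 near-identical genes whose reads may be shared. NQO1, a quinone reductase, differed by 0.65, GCLC, which starts glutathione synthesis, by 0.75, and PGD of the pentose phosphate pathway by 0.77. NFE2L2, the gene of NRF2 itself, differed by −0.13 and its inhibitor KEAP1 by −0.18. Relative to naive cells the median of the list was −0.51 in erAlec0 and −0.15 in erLor0, so both lines lay below naive.

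Of 30 cell cycle genes 25 were higher in erLor0, with a median of 0.34. E2F1, a driver of the G1 to S transition, had 7.40 in naive cells, 6.03 in erCriz0, 5.79 in erAlec0 and 6.79 in erLor0. No other member was past the limit. When libraries were centred or quantile normalized E2F1 fell just short of it, at 0.99. The cyclins CCNE1 and CCNE2 differed by 0.80 and 0.81, the nucleotide enzymes RRM2 and TYMS by 0.84 and 0.62 and the replication clamp PCNA by 0.65, while the mitotic genes CCNB1 and PLK1 differed by 0.04 and −0.10. The median of the list was 0.76 below naive in erAlec0 and 0.51 below in erLor0. E2F2 and ORC1, chosen after their values were seen, differed by 1.01 and 1.30.

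Of 24 genes of cholesterol and fatty acid synthesis 16 were higher in erLor0, with a median of 0.23. FASN, the fatty acid synthase, differed by 0.95.

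Surface, matrix and secreted proteins were mixed. COL7A1, the anchoring fibril collagen, was higher in erLor0 by 1.09, while the basement membrane collagen COL4A1 and the fibrillar COL5A2 were lower by 1.04 and 1.02. Of 30 integrin, laminin and collagen genes 9 were higher in erLor0, with a median of −0.18. Among 23 secretory and mucin genes MUC1, LCN2 and MUC13 differed by −1.21, −1.14 and −1.09 and none was past the limit the other way. SEMA3B, a secreted guidance factor, differed by −1.65, and 14 of the 15 neuropilin, plexin and semaphorin genes were higher in erAlec0. S100A9, a calcium-binding alarmin, had 6.87 in naive cells, 10.97 in erCriz0, 7.06 in erAlec0 and 5.96 in erLor0.

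The genes of epithelial to mesenchymal transition had a median of −0.08 over 17 members. None was past the limit, at a share of 1.23% over all members. VIM, the mesenchymal filament vimentin, had 5.74 in naive cells, 8.13 in erCriz0, 7.20 in erAlec0 and 6.27 in erLor0. Its 2 paired peaks were both higher in erAlec0, by 1.53 and 1.16. CD44, a hyaluronan receptor, lay on the other side, with 10.25, 11.57, 10.88 and 11.76, and SNAI2, the factor SLUG, differed by −0.02. Keratin 4, encoded by KRT4, was higher in erLor0 by 1.32, and GREM1 and BMP7, an antagonist and a ligand of the BMP pathway, differed by −1.51 and 1.26.

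**Figure D4:**
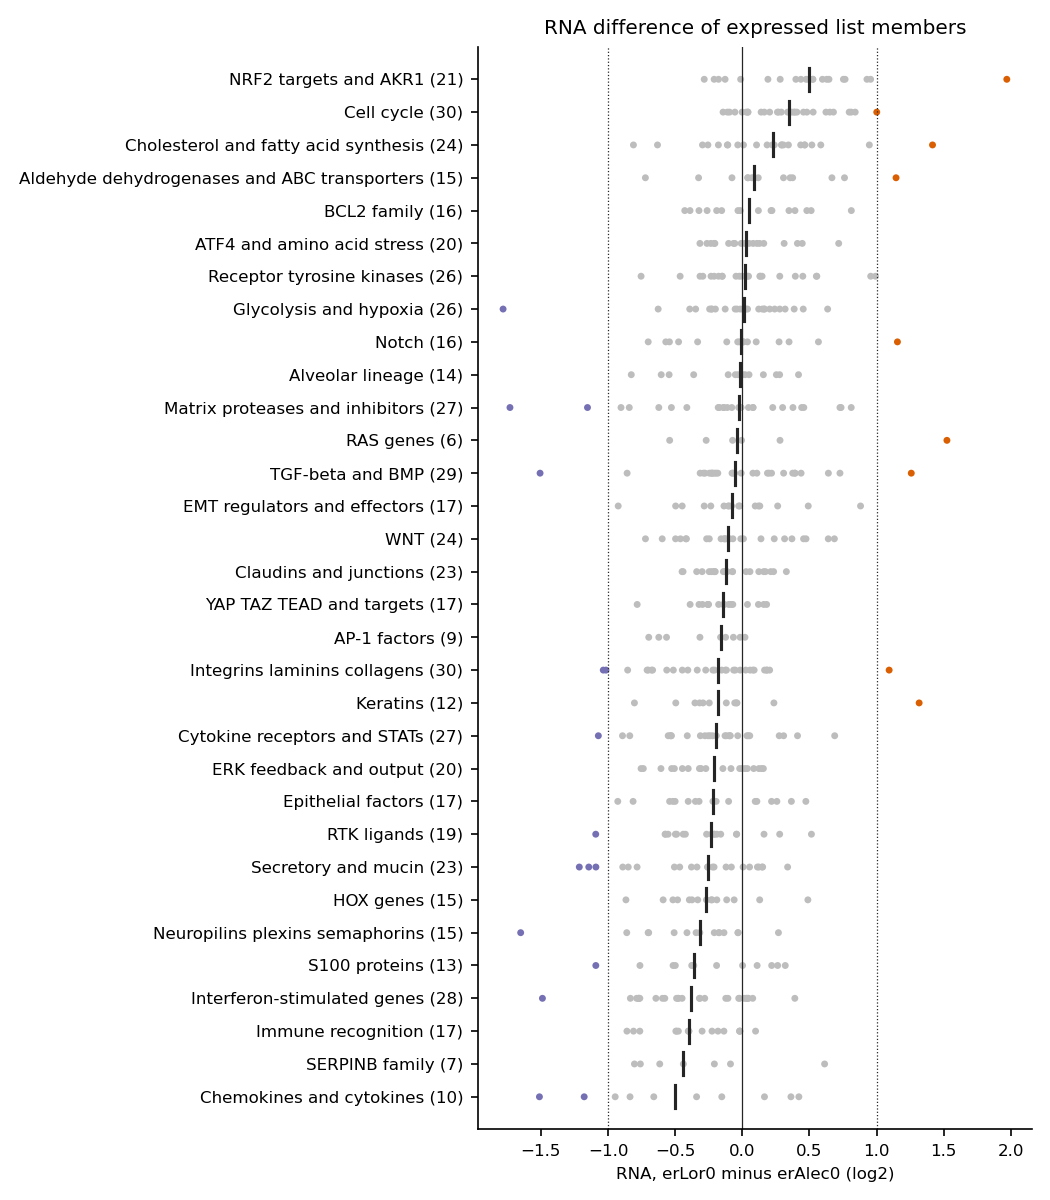
RNA difference of erLor0 minus erAlec0 (log2 scale) of the expressed members of each gene list, 1 point per gene, with the number of members in parentheses and a black bar at the median. Orange points are past the limit in favour of erLor0, purple points in favour of erAlec0, and dotted lines mark the limit. The medians run from −0.50 for chemokines and cytokines to 0.49 for NRF2 targets and AKR1 reductases.

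Every other list of more than 2 genes had a median between −0.44 and 0.09. HOX genes stood at −0.27, epithelial factors at −0.22, keratins at −0.18, TEAD cofactors and targets at −0.14, claudins at −0.12 and WNT genes at −0.11. With genes under the minimum added, the median of keratins was −0.045 and that of WNT genes 0.0051. Genes of glycolysis and hypoxia stood at 0.02, ATF4 targets at 0.02, the BCL2 family at 0.05 and aldehyde dehydrogenases and ABC transporters at 0.09. In the last list ALDH2, the mitochondrial aldehyde dehydrogenase, was past the limit with 1.15. Of the 7 SERPINB genes, 6 were higher in erAlec0, with the lowest of these medians.

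RNA and H3K27ac of the same genes were then set side by side, with each gene paired to the peaks within 20 kb. The study's methods state 48 h without inhibitor for RNA and state no such period for H3K27ac. The 2 measures may therefore differ in inhibitor exposure. The 647 pairs of genes higher in erLor0 had a median peak difference of 0.64, the 678 pairs of genes higher in erAlec0 one of −0.30, and the 92138 pairs of all other members 0.08. The first value rested on the chromosome 1 stretch: outside both stretches it was 0.16 over 376 pairs, and the value for erAlec0 was −0.19 over 562 pairs. A peak within 1 kb of the start was present at 64 genes higher in erLor0, 32 of which had a promoter difference of at least 1, but only 5 of these lay outside the stretches. Of 57 genes higher in erAlec0 with such a peak, 5 had a promoter difference of −1 or less. Across the 11191 genes outside the stretches with a promoter peak, Spearman's rho between the 2 differences was 0.17 and Pearson's r was 0.18, a description across genes that share libraries.

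**Figure D5:**
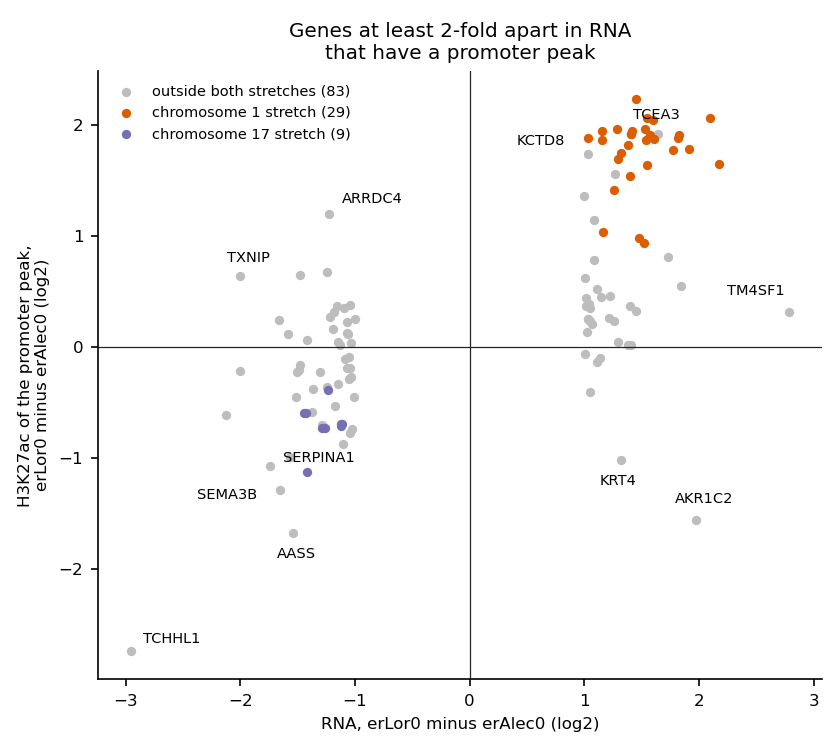
Difference in H3K27ac of the promoter peak (vertical) against difference in RNA (horizontal), both erLor0 minus erAlec0 on the log2 scale, for the genes past the limit in RNA that have a promoter peak. Orange marks the chromosome 1 stretch, purple the chromosome 17 stretch and grey all other genes, with numbers in parentheses. Orange points lie together at the upper right, while grey points spread around a promoter difference of 0, with AKR1C2 and KRT4 below −1 despite higher RNA in erLor0.

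A few genes had both measures on the same side outside the stretches. TCEA3, SLC43A1, P3H3, KCTD8 and FSTL4 were higher in erLor0 in RNA and at the promoter, SLC43A1, an amino acid transporter, by 1.27 and 1.56. TCHHL1, AASS, SEMA3B and SERPINA1 were higher in erAlec0 in both. In others the measures were opposite. AKR1C2 was higher in erLor0 by 1.97 in RNA, whereas its promoter peak had 5.56 in naive cells, 4.72 in erCriz0, 7.48 in erAlec0 and 5.93 in erLor0, a difference of −1.56. KRT4 differed by 1.32 in RNA and −1.02 at the promoter, under a peak that spans the whole gene (chr12:52795736-52816650).

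The 6 largest peak differences in favour of erAlec0 lay 29643 bases or more from the nearest coding gene start. A peak at chr11:131242134-131255321, over the start of a long noncoding RNA gene and 115157 bases from the start of NTM, had 5.61 in naive cells, 5.62 in erCriz0, 10.02 in erAlec0 and 6.22 in erLor0. A peak at chr4:169939213-169944290 over exons of the noncoding LINC02275 had 5.63, 5.32, 9.22 and 5.71. At both of these strong sites the erAlec0 library alone was high.

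Outside both stretches the peak with the largest difference in favour of erLor0 was at chr5:171063465-171065033, in an intron of RANBP17, with 7.88 in naive cells, 7.40 in erCriz0, 5.20 in erAlec0 and 7.46 in erLor0. Here erAlec0 was the low library. The 300 bases around the centre of the peak beside NTM are shown as a strong site outside the stretches at which H3K27ac was far higher in erAlec0, at chr11:131248578-131248877 of hg38, plus strand. Capitals again mark motif matches.
NTM upstream: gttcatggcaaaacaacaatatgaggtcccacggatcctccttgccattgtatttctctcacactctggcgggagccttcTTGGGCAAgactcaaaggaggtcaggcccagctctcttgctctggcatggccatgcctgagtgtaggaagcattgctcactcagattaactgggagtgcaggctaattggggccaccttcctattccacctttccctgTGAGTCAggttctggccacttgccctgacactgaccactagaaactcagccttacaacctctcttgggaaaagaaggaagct
The window holds a CEBP and an AP-1 match, motifs found in 12.3% and 9.88% of the 300-base windows of all member peaks.

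The other 4 of the 6 peaks with the largest difference in favour of erAlec0 were weaker. The largest, at chr8:5489440-5491493, read 2.51 in naive cells, 2.54 in erCriz0, 6.43 in erAlec0 and 2.30 in erLor0, a difference of −4.12, and lay 494468 bases from the start of CSMD1, and the others differed by −3.80, −3.40 and −3.38. Some of the peaks that differed lay next to each other, in runs of at least 5 neighbouring member peaks, all past the limit the same way. There were 146 such runs in favour of erAlec0, with 1050 of the 5748 peaks higher in erAlec0. In favour of erLor0 there were 17, with 389 of the 1433 peaks higher in erLor0, and 14 of these runs lay in the chromosome 1 stretch. The longest run in favour of erAlec0 held 31 peaks over 161 kb of HDAC9, a histone deacetylase gene (chr7:18507293-18668186), with median levels of 4.32 in naive cells, 3.86 in erCriz0, 5.43 in erAlec0 and 3.52 in erLor0. HDAC9 RNA differed by −0.69. The next held 26 peaks in a region that takes in the start of NTM (chr11:131216096-131424555), with medians of 2.49, 2.61, 5.52 and 3.13, and no member gene. The run after that held 24 peaks over FMN1, a formin gene (chr15:32774388-32957294), whose RNA differed by −0.21, next to GREM1.

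Promoter peaks differed least often. Of 19059 peaks within 1 kb of a gene start, 2.07% were higher in erAlec0 and 1.26% in erLor0, against 8.21% and 2.03% of 13715 intergenic peaks and 7.89% and 1.71% of 53541 peaks in gene bodies. The median difference was 0.12 at promoters and −0.061 in intergenic peaks. Promoter peaks were also stronger, with a median level of 7.28 against 4.62 in intergenic peaks and 4.63 in gene bodies. Their median GC content was 57.4%, against 47.4% and 46.4%. Whether the classes differed apart from level and GC content was not tested.

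The short motifs were counted in the 500 bases around the centre of each peak, on both strands. The NF-kB motif GGGNNTTCC was present in 12.3% of peaks higher in erLor0, 4.91% of those higher in erAlec0 and 7.77% of all member peaks. Among peaks with 38 to 48% GC the shares were 8.22%, 4.57% and 5.05%. The TEAD motif GGAATG was present in 23.2%, 31.2% and 25.2%, and in the GC range in 26.2%, 31.8% and 27.6%. The E-box CAGGTG was present in 47.8%, 36.8% and 43.4%, and in the range in 42.4%, 36.0% and 39.1%. For AP-1 the shares were 13.9%, 15.95% and 16.2%, and in the range 15.1%, 17.3% and 20.2%. The median GC content was 49.0%, 43.6% and 48.2% in the 3 sets, and within the GC range the order of the 3 shares was the same for NF-kB, TEAD, the E-box and AP-1.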

How the data were processed

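RNA and H3K27ac of naive H3122, erCriz0, erAlec0 and erLor0 cells were taken from 1 deposited table of log2 values, made by the authors with DESeq2 rlog, which shrinks differences where reads are few. Before that the authors used HISAT2 (hg38) and HTSeq-count for the RNA reads, and aligned ChIP reads with BWA, removed duplicates, called MACS2 peaks at q under 0.05, merged the peaks of 4 samples and counted reads with featureCounts. Versions and read depth are not given in the sources used here. The deposited correlation score r of each pair over the 4 lines, its raw and adjusted p-value and the authors' means were not used. The table pairs peaks and genes up to 20 kb apart.

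Values were examined with Python 3.11.15, pandas 2.3.3 and numpy 2.4.6. Coordinates matched GENCODE 44 on hg38 for 34114 of 34115 gene IDs of the same version, and 43669 of 43869 IDs had a symbol. The minimums are the log2 of 25 reads for RNA and 15 for peaks. With 1 library a side no test, error or p-value was computed. The calculations were tested on simulated data. Named were 11 genes the study turns on, the 15 genes most different each way, list members past the limit or the 2 most different where there was none, the 6 most different peaks each way, and genes whose RNA and peaks went the same way. One of the genes most different in favour of erAlec0, a pseudoautosomal copy whose reads cannot be told from its twin, is not given. Other genes the text names, list members included, were chosen after their values were seen. Members and lists were chosen with earlier results of these data known. Some genes and sequences that the rule takes in are not reported here. S100PBP, on the S100 list, binds an S100 protein and is not one. The alternatives covered the limit, the minimum, scaling, trends with level and GC content, distance, and removal of broad regions. The pooled input and the libraries erCriz1, erLor1 and Lor 2w were not analysed here.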

Additional observations from a re-analysis of the deposited data

Results flagged for a closer look

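Of the 12705 member genes, 14 stood at least 0.5 above the naive library in one line and at least 0.5 below it in the other. In these the 2 resistant lines differed in direction. Such a gene is past the limit by construction. All 14 therefore fall among the 155 genes past it, counted without the pseudoautosomal copy, and their share of those genes is no separate result. The difference between the lines was not tested, and the naive library is 1 library shared by both. Higher in erLor0 were TTF2 (2.17), VANGL1 (1.91), DCLRE1B (1.54), CD101 (1.52) and AP4B1 (1.16) of the chromosome 1 stretch, and MAOA (1.85), TCEA3 (1.65), the chromatin remodeller CHD5 (1.24), the unnamed gene ENSG00000285517 (1.21) and TTYH2 (1.03) elsewhere, as differences of erLor0 minus erAlec0. Higher in erAlec0 were LRCH2 (−2.32), VGLL3 (−2.12), SERPINA1 (−1.74) and the phospholipid transporter ATP10A (−1.20). For MAOA the steps from naive were 1.34 in erLor0 and −0.51 in erAlec0, and for LRCH2 −0.61 and 1.71. No gene of the members was at least 1 away from naive in both lines in opposite directions.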

How the results depend on the processing

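No paired analysis was possible because each line has 1 library and no result comes from a test. With no replicates, a value could be judged only against other ways of processing, and the rlog values hold no depth, so precision is unknown. A limit of 1.5-fold gave 409 genes and 7569 peaks higher in erLor0 and 434 genes and 13764 peaks higher in erAlec0, and a limit of 2 gave 3 and 94, and 6 and 520. A stricter minimum level left 691 peaks higher in erLor0 and 2185 higher in erAlec0. Centring gave 2377 peaks higher in erLor0, and among peaks written to at most 6 decimals 1.11% were. Leaving out the stretches, an alternative added after the data were seen, left 44 genes higher in erLor0. The median peak difference of pairs of genes higher in erLor0 was 0.23 at an RNA limit of 1.5-fold, 1.76 at a limit of 2, 0.81 with no minimum on peaks, 0.77 with centring, 0.20 without the bins of joint difference and 0.16 without the stretches. For genes higher in erAlec0 it was −0.067 at 1.5-fold, −0.17 with centring and −0.19 without the stretches. The cause was not tested. The other counts stayed within 1.5 times their value and the other medians over all members or pairs within 0.1. Of the list medians 9 moved when genes under the minimum were added, among them chemokines and cytokines to −0.030, S100 proteins to −0.19, SERPINB genes to −0.32, semaphorins and their receptors to −0.19 and WNT genes, with a change of sign, to 0.0051, and S100 proteins moved to −0.22 with quantile normalization. The other list medians moved less, and the 5 bins of joint difference were also 5 with centring and with quantile normalization. Of 112 named genes 110 kept their direction and side of the limit under both scalings, E2F1 and FSTL4 falling just short of the limit, as did all 18 named peaks.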

Other observations

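The genes in these paragraphs were chosen after their values were seen. Among transcription factors past the limit, MYB was higher in erLor0, with 7.64 in naive cells, 6.87 in erCriz0, 5.25 in erAlec0 and 6.70 in erLor0. FOXB1, a forkhead factor, was higher in erAlec0, with 4.32, 5.33, 6.88 and 5.31, and PLAG1, a zinc finger factor, with 6.34, 7.53, 7.61 and 6.10. MYB was lowest in erAlec0, whereas FOXB1 and PLAG1 were highest there. FLCN, a regulator of nutrient signalling just beyond the chromosome 17 stretch, had 6.79, 6.57, 8.44 and 7.20, a difference of −1.24.

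Ion and lipid genes were also among those past the limit. ANO1, a calcium-activated chloride channel, had 9.38 in naive cells, 7.57 in erCriz0, 8.32 in erAlec0 and 9.72 in erLor0. FADS2, a fatty acid desaturase, had 9.75, 9.08, 8.64 and 10.05. Both were about as high in erLor0 as in naive cells. The secreted hormone stanniocalcin, STC1, was higher in erAlec0, with 6.06, 6.30, 7.60 and 6.52.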
